A study of Mus musculus with 4 samples.

Results

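IN11 is 1 of 12 inhibitory neuron subtypes in a single-nucleus RNA atlas of the mouse superior colliculus. Its members were the nuclei that carry the subtype label IN11 in the authors' deposited table, 116 of 3459 inhibitory nuclei and of 9724 nuclei in all. The tissue came from C57BL/6J mice with no genotype or treatment difference between groups, dissected before birth at embryonic day 19 (E19) and after birth at day 4 (P4), day 8 (P8) or day 21 (P21). Nuclei of several pooled animals made up the 1 library of a stage, and the sources used here do not give how many animals or of which sex. The libraries held 24, 28, 40 and 24 IN11 nuclei in that order. No stage had a replicate library, so differences between stages have no replicate check and no test was made. The subtype label itself was set by the authors on these same nuclei, so contrasts between IN11 and the other subtypes describe the group and test nothing.

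The superior colliculus is the roof of the midbrain, a layered structure that receives retinal input on its surface and drives orienting movements from its deeper layers. Its inhibitory neurons release GABA, made by the enzymes encoded by Gad1 and Gad2 and loaded into vesicles by the transporter encoded by Slc32a1. Pax7 encodes a paired-box and homeodomain transcription factor that marks the dorsal midbrain from early in development. Inhibitory neurons of this region are commonly told apart by combinations of transcription factors, adhesion molecules and peptides.

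Levels are given as counts of unique molecular identifiers (UMIs) summed over the nuclei of a library and scaled to CPM, the counts in each 1000000 UMIs of the sum. In nuclei, long genes yield more UMIs through their introns, so CPM compares 1 gene between groups and does not rank genes. The summed IN11 profiles of the 4 libraries, in order of age, held 146611, 265724, 470385 and 454287 UMIs, and the median per nucleus rose from 6531 to 8741, 11085 and 17571 UMIs. The other inhibitory nuclei had medians of 6057, 7663, 9219 and 13793 UMIs, lower than IN11 at each stage. All intervals are 95% intervals for counting error only. No IN11 barcode recurred in another library.

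The label held against its markers. At least 1 Gad1 or Gad2 UMI was present in 23 of 24 nuclei at E19, 27 of 28 at P4, 38 of 40 at P8 and 24 of 24 at P21. The other inhibitory nuclei had such a UMI in 95.4% to 99.2%, and the excitatory nuclei in 25.9%, 28.7%, 31.6% and 33.4%. Gad2 stood at 716, 610, 553 and 396 CPM from E19 to P21, against 553, 485, 440 and 365 CPM in the other inhibitory subtypes. Gad1 stood at 266, 143, 208 and 214 CPM, against 283, 267, 285 and 237 CPM. Slc32a1 differed from the others by a mean log2 ratio of -0.03 ± 0.22 (SD over the 4 libraries). A UMI of Slc17a6, which encodes the vesicular glutamate transporter of excitatory midbrain neurons, was found in 6, 4, 7 and 1 IN11 nuclei, or 25%, 14.3%, 17.5% and 4.17%. The other inhibitory subtypes had it in 23.8%, 25.2%, 16.9% and 11.5%, and the excitatory neurons in 84.5% to 90.9%. The 3 excitatory markers Slc17a6, Slc17a7 and Slc17a8 together reached 6.6 to 47.7 CPM in IN11 and 13 to 49.4 CPM in the other subtypes, and 1 or 2 of them were at 0 in each library. Summed markers of astrocytes, microglia, endothelial cells, vascular leptomeningeal cells and dividing cells each stayed at or below 44.6 CPM. The oligodendrocyte list reached 239.9 CPM at P21, against 312.2 CPM in the other inhibitory subtypes, and the ependymal and choroid list 67.7 CPM at P4 against 98.7 CPM. Foxj1, Ttr and Folr1 of that list were all at 0 at E19 and P8. The thalamic and pretectal list reached 668, 636, 1063 and 2809 CPM, below the 2012 to 4291 CPM of the other subtypes, with Gbx2 and Prkcd at 0 throughout, and the cerebellar and other midbrain lists each stayed at or below 6.8 CPM. The part of these RNAs in the results was not tested.

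IN11 was a small share of the inhibitory neurons at each stage. In order of age it made up 2.69% of them (interval 1.73 to 3.97), 3.79% (2.54 to 5.44), 3.68% (2.64 to 4.97) and 3.24% (2.09 to 4.79). The 4 intervals overlap, so no change of share was detectable at these numbers. Nearby in the ranking of sizes, IN10 held 164 nuclei and IN12 held 111.

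**Figure D1:**
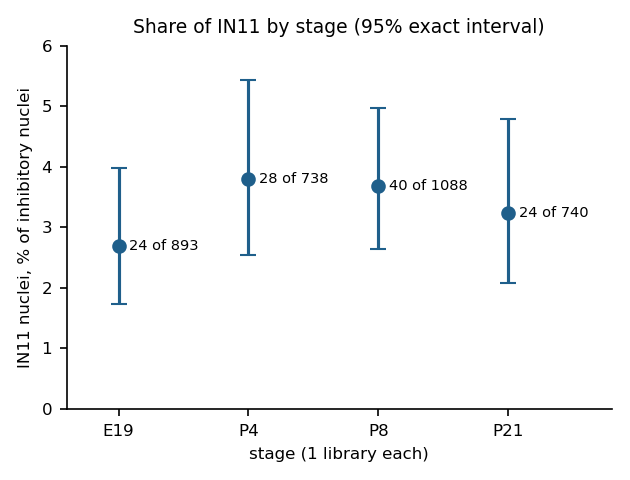
Share of IN11 among inhibitory nuclei (y axis, percent) in the library of each stage (x axis); points are shares, bars are exact 95% intervals for counting error, and the labels give IN11 nuclei of inhibitory nuclei. All 4 shares lie between 2.69% and 3.79% and their intervals overlap.

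The authors' other annotation columns place IN11 in a narrow region. All 116 nuclei fell in the authors' cluster 3, which held 477 nuclei, with 173 of IN5, 110 of IN12 and 64 of IN1 as the other large members. One set of reference labels in the table gave the label 8 to 113 of the 116 IN11 nuclei, or 97.4%. The same label went to 5.16% of the other inhibitory nuclei, and IN5 and IN1 supplied 30.4% and 20.6% of the nuclei that carry it. A further set split IN11 between ISC5 with 49 nuclei, ESC2 with 44 and ESC1 with 23. The other inhibitory nuclei carried ISC5, ESC2 and ESC1 in 57.4%, 23.8% and 18.4%. The mix differed between libraries without a steady course for ISC5, which took 15 of 24, 8 of 28, 20 of 40 and 6 of 24 nuclei from E19 to P21. ESC2 took 5, 8, 16 and 15 of the same nuclei. The columns are named for the SingleR label-transfer tool and for references called Vectorseq (label 8) and Transseq (ISC5, ESC1 and ESC2). The sources used here do not describe the references or the settings.

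Few genes set IN11 apart on the high side. Of 1897 genes at a mean of 100 CPM or more in IN11, 8 (0.422%) were at least 2-fold higher than in the pooled other inhibitory subtypes in all 4 libraries, on a log2 scale with 5 CPM added to both sides. They were Cdh23, Fibcd1, Sv2c, 2700069I18Rik, Prr16, Pax7, Pcdh11x and Zfhx4. On the low side the count was 46 of 1952 (2.36%), led by Col25a1, Tmem132d, Foxp2, Il1rapl2, Tfap2b, Rorb, Nfib and Reln. With every gene at 20 CPM or more on either side, 16 of 7358 (0.217%) were higher and 80 (1.09%) lower. At both minimums more genes were 2-fold lower than higher, and these shares are the background for the gene lists below.

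Cdh23, whose cadherin is best known from the tip links of inner-ear hair cells, led the list. The gene lies at chr10:60302748-60696490 on the minus strand (GENCODE M21 on GRCm38, as for the positions that follow). It measured 341, 440, 453 and 240 CPM from E19 to P21, against 58.0, 102, 96.1 and 25.9 CPM in the other inhibitory subtypes, a ratio of 5.88, 4.32, 4.71 and 9.26. The lowest IN11 library lay above the highest library of the pooled others, in a gene chosen for its ratio to them. It was not unique to IN11: IN8 was higher at P4 and P8, with 626 and 645 CPM, and IN1 at P8, with 563 CPM.

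Fibcd1, which encodes a transmembrane receptor that binds acetylated groups through a fibrinogen-like domain, had its largest ratio before birth. The gene lies at chr2:31813290-31846005 on the minus strand. It measured 532, 452, 249 and 123 CPM from E19 to P21, against 26.5, 27.6, 35.8 and 27.6 CPM. The excess was 20.1-fold at E19 (interval 15.1 to 26.5) and 4.47-fold at P21 (3.30 to 5.97). IN11 ranked first of the 12 subtypes at E19, P4 and P8, and at P21 IN7 was just above it at 132 CPM. A Fibcd1 UMI was present in 22 of 24, 24 of 28, 32 of 40 and 22 of 24 IN11 nuclei.

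Pax7, at chr4:139737062-139833528 on the minus strand, measured 293, 275, 274 and 154 CPM in IN11 and 121, 90.7, 104 and 51.6 CPM in the other inhibitory subtypes, a ratio of 2.42, 3.03, 2.63 and 2.99. IN11 was not the highest subtype: it ranked 4, 3, 3 and 2 of 12, behind IN4 at E19 and P4 (500 and 432 CPM) and IN9 at P8 and P21 (398 and 161 CPM). A single nucleus held 23 of the UMIs at P4. Pax7 UMIs were found in 18 of 24, 18 of 28, 29 of 40 and 21 of 24 IN11 nuclei. After each nucleus was drawn down to 2000 UMIs, the share with a Pax7 UMI was 37.5% (18.8 to 59.4), 28.6% (13.2 to 48.7), 20% (9.05 to 35.6) and 25% (9.77 to 46.7), against 19.9%, 14.2%, 15.2% and 9.08% in the other inhibitory nuclei and at most 0.673% in excitatory neurons. At E19, P4 and P8 the drawn-down share of the other nuclei lay inside the IN11 interval, so a difference was not detectable at this depth, and at P21 it lay below. The excess of Pax7 was below 2-fold in at least 1 library when nuclei were drawn down (smallest log2 ratio 0.69), when each nucleus counted alike (0.93) or when each other subtype did (0.60).

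The 3 genes differ in the sequence before their start sites, shown here to give the context of the leading genes, 250 bases up to the RefSeq start on GRCm38.p6, minus strand in each case and read 5′ to 3′, with CpG dinucleotides in capitals. The window of Pax7 is chr4:139832969-139833218, that of Fibcd1 chr2:31846006-31846255 and that of Cdh23 chr10:60696491-60696740.
Pax7: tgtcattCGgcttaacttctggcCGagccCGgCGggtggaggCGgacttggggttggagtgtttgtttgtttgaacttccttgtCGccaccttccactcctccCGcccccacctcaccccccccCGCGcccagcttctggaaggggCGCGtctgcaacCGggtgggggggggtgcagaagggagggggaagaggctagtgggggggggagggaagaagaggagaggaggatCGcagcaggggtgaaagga
Fibcd1: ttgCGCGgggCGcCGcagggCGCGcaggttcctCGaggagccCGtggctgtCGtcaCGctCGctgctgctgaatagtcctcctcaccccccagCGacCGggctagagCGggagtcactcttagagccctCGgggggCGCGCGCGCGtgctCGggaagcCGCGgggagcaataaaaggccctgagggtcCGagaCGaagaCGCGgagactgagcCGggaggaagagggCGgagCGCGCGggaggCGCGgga
Cdh23: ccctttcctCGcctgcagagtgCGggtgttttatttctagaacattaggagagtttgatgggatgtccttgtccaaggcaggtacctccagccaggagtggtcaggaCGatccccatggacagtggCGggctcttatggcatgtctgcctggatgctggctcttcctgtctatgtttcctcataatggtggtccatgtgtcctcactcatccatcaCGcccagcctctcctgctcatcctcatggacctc
Fibcd1 had 34 CpGs and 71.6% G or C, Pax7 13 CpGs and 65.2%, and Cdh23 5 CpGs and 54.4%. The medians over 32851 RefSeq windows of the same length were 6 CpGs and 52.4%. RefSeq windows were matched for 7 of the 12 leading high genes, 8 windows in all. The homeodomain letters TAATTA, searched on both strands with overlaps allowed, were in none of these 8 windows and in 4.84% of all windows. The same search for TATAAA, the TATA box, found none in the 8 and 12.4% of all windows. For CATCTG, a basic helix-loop-helix site, it found none in the 8 and 14.4% of all windows. The palindromic paired-class homeodomain sites with spacers of 2 and 3 bases, searched the same way, were likewise in none of the 8 and in 0.384% and 0.463% of all windows. At such rates 8 windows are too few to show that a site is missing, so no conclusion is drawn.

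Sv2c, at chr13:95954594-96132577 on the minus strand, encodes a synaptic vesicle glycoprotein, and IN11 held its highest level of all 12 subtypes in each library. It measured 280, 203, 166 and 240 CPM, against 37.1, 39.5, 57.9 and 52.8 CPM in the other subtypes pooled. At P8 the first rank was nearly a tie, with IN3 at 163 CPM. IN3 stood at 148 CPM at P4 and IN7 at 161 CPM at E19. Pcdh11x, an X-linked protocadherin, was likewise highest in IN11 in all 4 libraries, at 1951, 1407, 1382 and 1211 CPM against 456, 464, 589 and 447 CPM. Zfhx4, a zinc finger and homeobox factor, was also highest in IN11 throughout, at 1371, 704, 857 and 678 CPM, but IN12 followed within a small margin (1237, 701 and 763 CPM at E19, P4 and P8). Its antisense neighbour 2700069I18Rik, at 3:5177586-5220841 on the minus strand, overlaps the start of Zfhx4 (3:5218526-5415857, plus strand) and had a mean log2 ratio of 1.63 ± 0.20. The sources used here do not say if reads were counted by strand, so reads of this pair may be shared. In 2700069I18Rik, IN12 stood above IN11 in each library, at 408 to 708 CPM against 163 to 477 CPM, and IN9 was close with a mean of 336 against 351 CPM. With each other subtype weighted alike, the smallest log2 ratio fell below 2-fold for 2700069I18Rik (0.93) and Zfhx4 (0.95), and for Zfhx4 also with thinned nuclei (0.81) and with each nucleus weighted alike (0.98).

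The related factor Zfhx3 narrowly missed 2-fold, with ratios from 0.99 to 1.43 on the log2 scale. Its levels were 5286, 4290, 3688 and 2928 CPM, rank 3 of 12 in each library, below IN12 and IN9. Prr16 was at 437, 523, 493 and 770 CPM against 174, 129, 107 and 227 CPM, and IN11 was first at P4, P8 and P21. Car10, a carbonic anhydrase-related protein that binds neurexins, and the long noncoding RNA Gm30382 had mean log2 ratios of 1.07 ± 0.10 and 1.08 ± 0.17. IN7 had a higher mean of both, 2085 against 1925 CPM for Car10 and 427 against 413 CPM for Gm30382, and IN5 was above IN11 in Car10 at E19, P8 and P21. Rhbdl3, a rhomboid family member, had a ratio that fell with stage. It stood at 300, 218, 176 and 249 CPM in IN11, while the other subtypes went from 11.5 CPM at E19 to 124 CPM at P21, so the 26.0-fold excess at E19 became 2-fold (1.64 to 2.43).

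**Figure D2:**
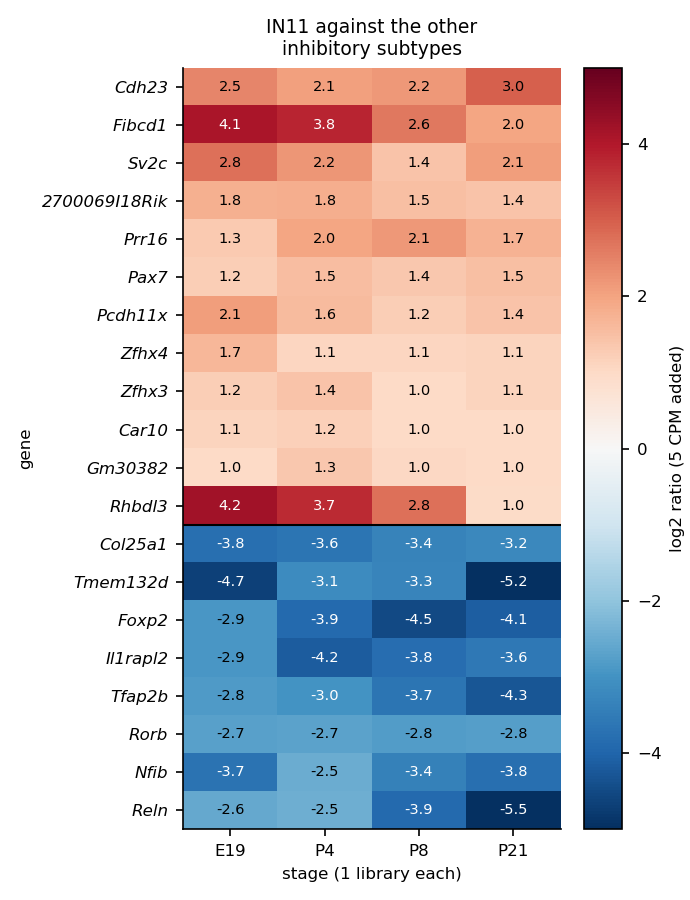
Log2 ratio of IN11 to the pooled other inhibitory subtypes (colour and printed value, 5 CPM added) in each library (columns) for the 12 leading high genes (above the line) and 8 leading low genes (below). The genes were chosen to keep their direction in all 4 libraries. Fibcd1 goes from 4.09 at E19 to 1.98 at P21 and Rhbdl3 from 4.21 to 0.97.

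The leading low genes were each high in other inhibitory subtypes. Col25a1, a transmembrane collagen, stood at 34.1, 41.4, 87.2 and 44.0 CPM in IN11 and at 530, 573, 936 and 455 CPM in the others, with IN3 at 4747, 3408, 3080 and 1254 CPM. Tmem132d stood at 13.6, 41.4, 51.0 and 2.2 CPM against 470, 400, 546 and 264 CPM, with IN9 highest throughout. Il1rapl2, an interleukin-1 receptor family adhesion protein, stood at 75, 26.3, 59.5 and 59.4 CPM against 589, 559, 907 and 763 CPM. Reln, the secreted reelin glycoprotein, stood at 27.3, 30.1, 14.9 and 2.2 CPM against 184, 187, 286 and 319 CPM, and IN11 had the lowest level of the 12 subtypes at E19, P8 and P21. These 4 genes were chosen by their ratio, so their separation from the pooled others follows from the choice. Single subtypes were as low: Col25a1 averaged 35.2 CPM in IN12 against 51.7 CPM in IN11, and Il1rapl2 34.5 CPM in IN7 against 55.1 CPM. Tmem132d averaged 29.6 CPM in IN5 against 27.1 CPM in IN11.

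**Figure D3:**
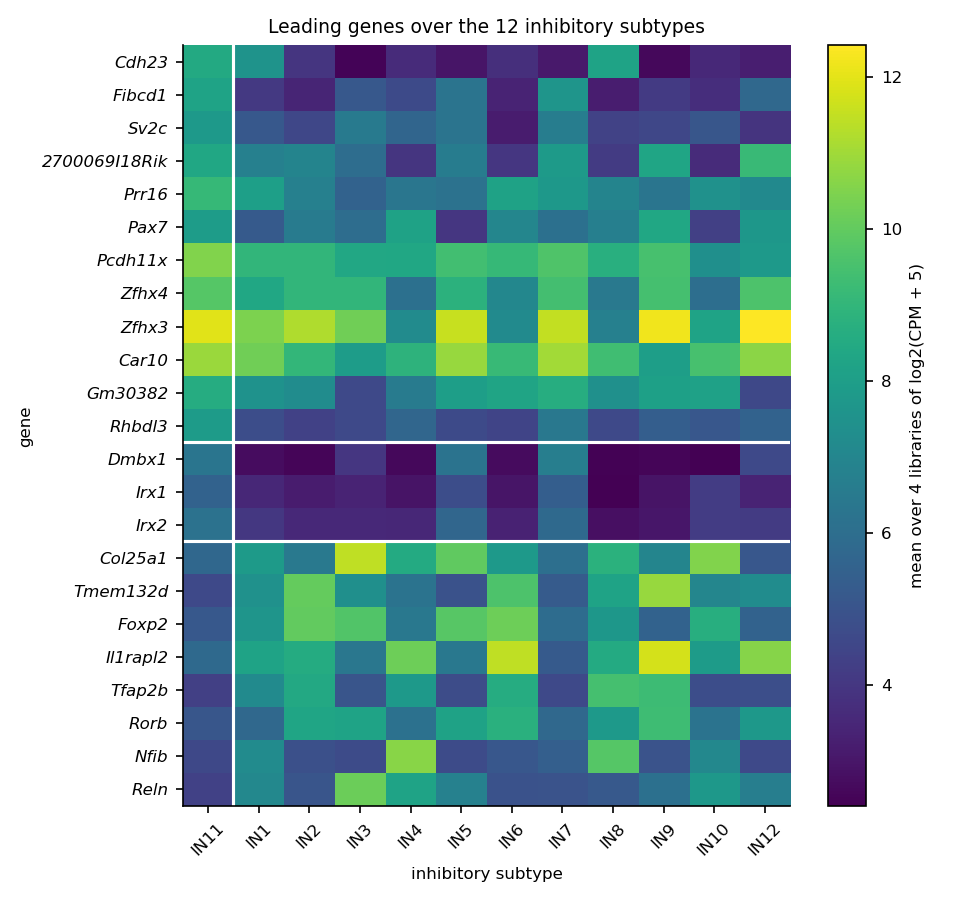
Mean over the 4 libraries of log2(CPM + 5) (colour) for the 12 leading high genes, Dmbx1, Irx1 and Irx2, and the 8 leading low genes (rows) in the 12 inhibitory subtypes (columns, IN11 first). Fibcd1 and Irx1 are also high in IN7, Dmbx1 and Irx2 in IN7 and IN5, and Cdh23 in IN8 and IN1. Zfhx3, Zfhx4 and 2700069I18Rik are also high in IN12 and IN9, while the 8 low genes are high in several subtypes each.

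Among transcription factors, more were low in IN11 than high, as over all genes. Of 120 midbrain factors 56 passed 20 CPM on either side, and 5 of these were 2-fold higher and 11 2-fold lower in all 4 libraries. Over all 7358 genes 0.217% were higher and 1.09% lower. The median log2 ratio of the factors was -0.64, against -0.04 over all genes. The list was written with earlier results of these data known. The 5 higher factors were Pax7, Zfhx4 and the homeobox factors Dmbx1, Irx1 and Irx2. Dmbx1, a paired-type homeobox gene of the midbrain, measured 123, 60.2, 72.3 and 52.8 CPM against 15.3, 12.7, 19.7 and 9.68 CPM. Irx2 measured 102, 86.6, 55.3 and 39.6 CPM against 21.2, 14.2, 12.8 and 9.22 CPM and was highest in IN11 in each library. Irx1 had a mean log2 ratio of 1.83 ± 0.35. These are low counts: from E19 to P21 a Dmbx1 UMI was found in 11 of 24, 10 of 28, 21 of 40 and 13 of 24 nuclei, and an Irx2 UMI in 10, 12, 18 and 13. IN7 had the highest Dmbx1 of the other subtypes in each library, at 50.3 to 187 CPM, and stood above IN11 at E19, P4 and P8. IN5 was close, with a mean of 76.6 CPM of Dmbx1 against 77 CPM in IN11 and 51.3 CPM of Irx2 against 70.9 CPM.

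The 11 lower factors were Meis2, Ebf1, Ebf3, Tfap2b, Foxp2, Rorb, Nfia, Nfib, Tshz2, Bcl11a and Ldb2. Foxp2, a forkhead factor, stood at 68.2, 26.3, 21.3 and 22.0 CPM against 552, 454, 587 and 462 CPM. Meis2, a homeobox cofactor, stood at 75, 11.3, 25.5 and 8.81 CPM against 410, 262, 377 and 344 CPM. Tfap2b, an AP-2 factor, had 7, 6, 8 and 0 UMIs in all from E19 to P21. Ldb2, a LIM-domain binding cofactor, was lowest in IN11 among the 12 subtypes in each library, at 95.5, 105, 76.5 and 110 CPM. Rora, a nuclear receptor, did not reach the 2-fold count because its ratio shrank with stage. It stood at 239, 331, 729 and 2571 CPM against 1510, 1738, 2760 and 3952 CPM, and IN11 was the lowest subtype at E19, P4 and P8. One nucleus held 216 of the Rora UMIs at P21. Gata3, Tal1, Sox14 and Zfpm2, factors of the midbrain GABA programme, had mean log2 ratios of -0.48 ± 0.28, 0.01 ± 0.18, -0.17 ± 0.27 and -0.11 ± 0.31, none 2-fold.

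Of 7 peptide and calcium-binding genes at the minimum, 3 were 2-fold lower in all libraries, Sst, Nxph1 and Reln, beside 1.09% of all genes. None was 2-fold higher, beside 0.217% of all genes. Nxph1, a secreted neurexin ligand, stood at 68.2, 124, 198 and 315 CPM against 2294, 1811, 1790 and 1089 CPM. Sst, the somatostatin precursor, gave 3, 1, 2 and 3 UMIs. Pnoc, the nociceptin precursor, had the one positive ratio in every library, a mean of 0.83 ± 0.39, with 218 CPM at E19 and 28.6 CPM at P21. Among 7 transmitter genes at the minimum, Nos1, the neuronal nitric oxide synthase, was the single one 2-fold lower (1, 4, 3 and 2 UMIs).

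Among receptor and channel genes, most were within 2-fold in at least 1 library, as were nearly all genes tested (0.217% higher and 1.09% lower in all 4). None of 20 GABA and glycine receptor genes and none of 22 glutamate receptor genes was 2-fold apart in all libraries, and their median log2 ratios were -0.04 and 0.08. Within them Grid1, a delta glutamate receptor that joins synapses through cerebellins, was highest in IN11 of all subtypes in each library, at 1705, 1558, 1539 and 1061 CPM against 717, 715, 671 and 659 CPM. The kainate receptor gene Grik2 was lower, at 771, 1020, 999 and 1171 CPM against 2466, 2354, 2373 and 1966 CPM. Of 20 modulatory receptor genes 3 were 2-fold lower, beside 1.09% of all genes, the muscarinic Chrm2, the dopamine Drd2 and the orexin Hcrtr2, and none higher. Drd3, another D2-type receptor, went the other way in 3 libraries, at 37.6, 10.6 and 44.0 CPM from P4 to P21 (10, 5 and 20 UMIs) against at most 3.87 CPM, with no UMI at E19. Of 38 potassium channel genes 2 were 2-fold lower, Kcnc2 and Kcnab1. Kcnc2, a Kv3 channel of fast-firing neurons, stood at 81.8, 56.4, 168 and 176 CPM against 301, 444, 549 and 591 CPM. Of 33 sodium, calcium and HCN channel genes 1 was lower, the calcium channel subunit gene Cacna2d1.

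Adhesion genes gave the remaining contrasts. Of 82 synapse and adhesion genes at the minimum, Pcdh11x was 2-fold higher and Il1rapl2, Dscaml1, Mdga1 and Cdh4 were 2-fold lower, with a list median of 0.06. Cdh9, a classical cadherin, had a mean log2 ratio of 1.63 ± 0.64 and stood at 184, 324, 155 and 269 CPM against 92.3, 62.1, 63.6 and 61.3 CPM. Tenm3, a teneurin that guides visual map connections, stood at 7769, 4640, 6533 and 3843 CPM against 2393, 2723, 3066 and 2001 CPM. Of 61 axon guidance genes none was 2-fold higher and 2 were lower, Efnb2 and the neuropilin gene Nrp1. Efnb2 passed the minimum only in the other subtypes, at a mean of 33.5 CPM against 3.35 CPM in IN11. Over all 7358 genes 0.217% were higher and 1.09% lower, so 0 higher of 61 says nothing particular of these genes. Cntn5, a contactin, had a mean log2 ratio of 1.02 ± 0.26 and Nrp1 one of -1.81 ± 0.57.

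By whole profile, IN11 had its highest correlations with IN1, IN5 and IN2. Across 5020 to 6102 genes at 50 CPM or more in some inhibitory subtype, the Pearson correlation of log2(CPM + 5) between IN11 and IN1 was 0.85, 0.91, 0.92 and 0.92 in the 4 libraries, a mean of 0.900. IN5 and IN2 followed at 0.888 and 0.887, and IN7 at 0.864. These are correlations across genes of profiles that share a library, and genes are not independent replicates. Within libraries IN1 was above IN5 in all 4 and above IN2 at P4, P8 and P21, while IN2 was highest at E19. With each subtype drawn down to the same UMI total per library the first 3 were in the same order by mean, at 0.839, 0.835 and 0.828, with IN7 at 0.822. In that setting IN1 was highest at P4, P8 and P21. At E19 IN5 (0.779), IN7 (0.773) and IN2 (0.766) stood above IN1 (0.764). With genes at 200 CPM or more IN7 passed IN2: IN1 was at 0.864, IN5 at 0.863, IN7 at 0.841 and IN2 at 0.827.

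**Figure D4:**
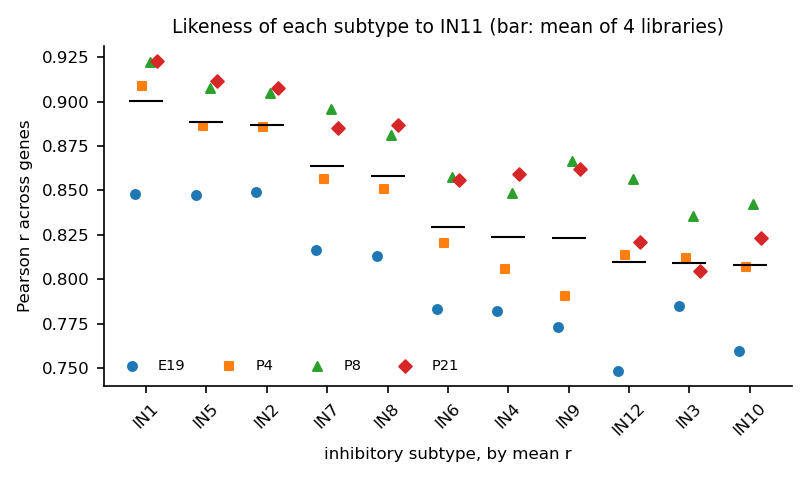
Pearson correlation across genes of log2(CPM + 5) between IN11 and each other inhibitory subtype (y axis) in each library (marker shapes), ordered by the mean (bar). IN1, IN5 and IN2 lead with means of 0.900, 0.888 and 0.887, and the E19 library is lowest for each of the 11 subtypes.

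Genes still separated IN11 from its nearest subtypes. Against IN1, 16 of 1897 genes (0.843%) were 2-fold higher in IN11 in all libraries and 35 of 1911 (1.83%) lower. Fibcd1 averaged 339 CPM against 13.4 CPM in IN1, Pax7 249 against 37.1 CPM, and Lef1, a Wnt effector, 287 against 55.2 CPM. Against IN5, 18 genes (0.949%) were higher and 40 of 1880 (2.13%) lower. Cdh23 averaged 369 CPM against 3.6 CPM in IN5 and Pax7 249 against 11.8 CPM, while Col25a1 was at 51.7 against 1052 CPM. Against IN2, 29 genes (1.53%) were higher and 41 of 1912 (2.14%) lower. Adarb2, an RNA-editing family gene, averaged 2943 CPM against 92.7 CPM in IN2, and Otx2os1 1420 against 68.8 CPM. In IN2, Fibcd1 averaged 6.32 CPM and Cdh23 11.9 CPM.

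The members were not uniform. The 12 leading genes were chosen on these nuclei, so their joint presence is a description. After drawing down to 2000 UMIs, a median of 8, 7, 6.5 and 6.5 of the 12 was detected per IN11 nucleus from E19 to P21, with a range over all libraries of 2 to 11, against a median of 3 in the other inhibitory nuclei. None of the 8 low genes was detected in 45.8%, 78.6%, 55.0% and 58.3% of IN11 nuclei, against 7.54% to 15.2% of the others.

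Of the 12 leading genes, Cdh23 had the largest excess of nuclei at 0 as a difference of numbers. It was absent from 55 of the 116 nuclei, whereas 5.66 would be at 0 if every nucleus of a library expressed it at the library's rate and its own depth. Zfhx3 was detected in all 116 nuclei and Zfhx4 in 115. Fibcd1 was at 0 in 16 nuclei against 8.47 under the same even rate, Pax7 in 30 against 12 and Rhbdl3 in 42 against 15.9. The next comparison was chosen after the Cdh23 values were seen. The 61 nuclei with a Cdh23 UMI and the 55 without it had median depths of 11485 and 8601 UMIs. Fibcd1 had 263 and 298 CPM in them and Gad2 509 and 556 CPM. Pax7 had 300 and 145 CPM, and was higher in the Cdh23-positive nuclei in each library (375, 337, 396 and 184 against 239, 214.5, 94.6 and 90.4 CPM). Meis1, a homeobox factor, had 313 and 37.7 CPM, with 273, 115, 475 and 258 against 34.1, 29.6, 42.1 and 41.7 CPM. Detection of 1 gene splits nuclei partly by chance, so this is a description of co-detection and not of 2 cell types.

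Across stages, gene levels in IN11 moved further than in the pooled other subtypes, whose sums hold many more UMIs. The 90th percentile of the absolute log2 change, over genes with 100 CPM and 50 UMIs or more in the higher stage, was 0.99, 0.66 and 0.99 over the 3 consecutive steps and 1.74 from E19 to P21. In the pooled other subtypes it was 0.48, 0.39, 0.79 and 1.34. With their sums drawn down to the UMI totals of IN11 it was 0.65, 0.59, 0.90 and 1.39. IN11 stayed above in each step, but it rests on 24 to 40 nuclei and the spread between so few nuclei was not removed by that alternative.

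From here on a gene is said to rise or fall where it passed 2-fold between libraries, a size with no replicate check. From E19 to P21, 323 of 1388 genes (23.3%) rose and 90 (6.48%) fell. The minimum of 50 UMIs is 341 CPM at E19 and 110 CPM at P21. With 341 CPM required in the higher stage at either age, 93 of 578 genes (16.1%) rose and 90 (15.6%) fell. Of the 323 that rose, 305 also had a positive change in the other inhibitory subtypes, and 129 rose 2-fold there. Of the 90 that fell, 85 had a negative change there and 47 fell 2-fold.

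The largest falls were in genes of the young neuron. Tubb2b, a tubulin of growing axons, went from 996 CPM at E19 to 350, 176 and 0 CPM, at least 151-fold lower at P21 against a limit of 3 UMIs. The imprinted gene Nnat went from 135 UMIs (921 CPM) to 4 UMIs (8.81 CPM), Tmsb10, which binds actin monomers, from 464 to 4.4 CPM, and Tubb5 from 662 to 8.81 CPM. In the other subtypes the log2 changes were -6.44, -5.21, -4.74 and -4.94. In the list of maturation genes, of 22 genes at the minimum 8 rose, among them Snap25, Syt2, Camk2a and Slc12a5, and 10 fell, among them Stmn2, Map1b and Gap43.

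Potassium channel and GABA and glycine receptor genes past 2-fold from E19 to P21 rose. Of 18 potassium channel genes at the minimum, 7 rose and 0 fell, among the risers the Kv3 genes Kcnc1 and Kcnc2 and the M-current gene Kcnq3. Of 13 GABA and glycine receptor genes, 5 rose and 0 fell, among them Glrb, the glycine receptor beta subunit, and Slc12a5, the chloride exporter that makes GABA hyperpolarizing. Of 19 glutamate receptor genes, 2 rose, the NMDA receptor subunits Grin1 and Grin2a, and 2 fell, Grik1 and Grm3. Axon guidance genes went the other way: of 27, 3 rose (Sema5a, Cntn3 and Cntn4) and 6 fell (Epha7, Ephb1, Sema6d, Chl1, Gap43 and Dpysl3). Of 46 synapse and adhesion genes, 5 rose and 5 fell, with Tenm3 among the latter. Of 12 midbrain factors, Rora and Esrrg rose and Zfhx4 fell. These counts, and those of the maturation list, stand beside the 23.3% and 6.48% of all genes that rose and fell. At 6.48%, lists of 18 and 13 genes are too short for 0 falls to be read as a direction. The lists were not recounted with 341 CPM required at either age, where 16.1% of all genes rose and 15.6% fell.

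The largest rises began at 0 UMIs. Htr2c, the serotonin 2C receptor, gave 0, 19, 17 and 194 UMIs, or 0, 71.5, 36.1 and 427 CPM, at least 20.9-fold higher at P21. In the other subtypes it stood at 133, 209, 148 and 520 CPM, so IN11 began without detectable Htr2c and came near the others at P21. Etl4 also began at 0 UMIs but stayed below the others, at 0, 113, 151 and 687 CPM against 183, 280, 508 and 1160 CPM, with an at least 33.6-fold rise in IN11 and a 6.35-fold rise in the others. Rasgrf1, an exchange factor for Ras, rose at least 30.0-fold (614 CPM at P21) and Me3, the mitochondrial malic enzyme, at least 11.6-fold (238 CPM). Pip5k1b, a phosphoinositide kinase gene, went from 0 to 125 CPM. A count of 0 at E19 allows up to 20.5 CPM at the limit of 3 UMIs.

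Early and late steps had different leaders. Between E19 and P4 the leading rises were AC149090.1 (54.6 to 549 CPM), Col19a1 (34.1 to 278 CPM), the thyroid hormone receptor gene Thrb (27.3 to 196 CPM) and Cit (34.1 to 203 CPM), and the largest falls Syt4, Nrip1, Epha4 and St8sia2. From P4 to P8 they were Cpne4, Tcerg1l, Meis1 and Synpr, and C1qtnf4, Fras1, Tubb2a and Uchl1. The P8 rises came from few nuclei: the 4 highest nuclei held 73.7% of the Cpne4 UMIs, 70.1% of Tcerg1l and 70.9% of Meis1. From P8 to P21 the largest rises were Gm13629 (12.8 to 326 CPM), Htr2c, Mkx and Pcgf5. The last 2 rested on 1 UMI each at P8, with ratios of 55.9 (interval 9.62 to 2249) and 51.8 (8.88 to 2085). The largest falls there were Tubb2b, Nnat, Fbxl7 and Zfp57. Of the 6 Fbxl7 UMIs at P21, 83.3% were in 1 nucleus.

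Some genes ran against the other inhibitory subtypes. Fras1, an extracellular matrix protein gene, stood at 389, 1001, 440 and 152 CPM in IN11, with P4 far above the rest, and at 104, 138, 221 and 206 CPM in the others. From E19 to P21 it went to 0.391 of its level in IN11 (0.271 to 0.565) and to 1.98 of it in the others (1.81 to 2.17). One nucleus held 50.9% of the Fras1 UMIs at E19, and without the top nucleus of each stage the log2 change was -0.83 in place of -1.33. Nrip1, a corepressor of nuclear receptors, went from 416 to 121 CPM, a log2 change of -1.74 against 0.35 in the others. Epha4, an ephrin receptor, stood at 355, 105, 204 and 233 CPM in IN11 and at 140, 153, 191 and 230 CPM in the others, so it stood well above them at E19, below them at P4 and close to them at P8 and P21. Fibcd1 went to 0.232 of its E19 level (0.161 to 0.331) while the others were at 1.04 of theirs (0.854 to 1.27), and Zfp521 had a log2 change of -2.74 against -0.78.

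**Figure D5:**
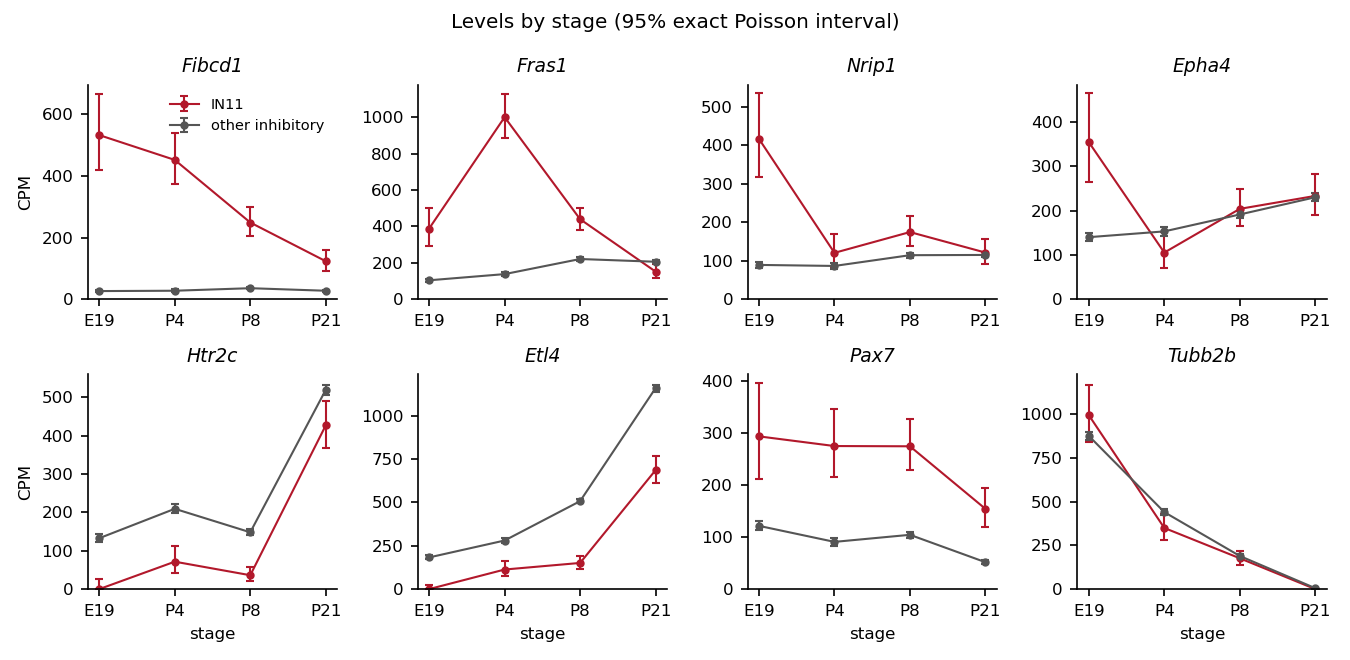
CPM (y axis) in IN11 (red) and the pooled other inhibitory subtypes (grey) at each stage (x axis) for 8 genes, with exact 95% Poisson intervals for counting error. Fibcd1 falls in IN11 from 532 to 123 CPM and not in the pooled others, Fras1 peaks at P4 at 1001 CPM, Htr2c and Etl4 begin at 0 in IN11, and Tubb2b falls to 0 in IN11 and to 5.16 CPM in the others.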

How the data were processed

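The study measured RNA in single nuclei with 10x 3′ v3 chemistry. Per the labels and the submitters' processing notes, reads were processed with Cell Ranger 3.0.2 on a pre-mRNA reference from mm10, and the authors deposited UMI counts per gene and nucleus. The deposited table also gives the percent of mitochondrial UMIs per nucleus and the stage, class, subtype and reference labels. The sources used here do not give filters on nuclei, doublet treatment or use of the read strand. 5 further columns of per-nucleus values were not used. Gene positions came from GENCODE M21 and promoters from RefSeq on GRCm38.p6.

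Counts were summed per library and subtype with Python 3.11.15, numpy 2.4.6, pandas 2.3.3 and scipy 1.17.1, scaled to CPM and compared as log2 ratios after adding 5 CPM. Figures used matplotlib 3.10.9. Nuclei were thinned to 2000 UMIs for shares of nuclei with a UMI, and none was shallower. Intervals are exact Poisson, conditional binomial or Clopper-Pearson at 95%. With 1 library per stage no test between stages was possible, and the contrast of IN11 with the other subtypes, measured within 4 libraries, was not tested because the label was set on the same nuclei. Named genes were the 12 highest and 8 lowest by their smallest ratio over libraries at 100 CPM, the 4 largest rises and falls per stage step, the 4 most above and below the other subtypes, and list members by level or rank. Genes named in the nearest-subtype and Cdh23 comparisons were chosen after their values were seen. The members and gene lists were chosen with earlier results of these data known. Alternatives changed the added CPM, scaling, weighting, depth, gene minimum, nuclei and libraries. Scripts were tested on simulated data. The stage change of 1 gene list is not reported here.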

Additional observations from a re-analysis of the deposited data

Results flagged for a closer look

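In 3 genes the E19 to P21 change ran down in IN11 and up in the other inhibitory subtypes. The difference of the log2 changes, IN11 minus the others, was -1.29 for Epha4, -2.09 for Nrip1 and -2.28 for Fras1. Each stage is 1 library, so none of these differences was tested.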

How the results depend on the processing

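No gene with a mean ratio of 2-fold or more changed sign, a count of 0 beside 1496 values from 136 named genes and 11 alternatives. The 1496 values include genes with smaller ratios, such as Gad1 and Slc32a1, where changes of sign were not counted. The leading genes were chosen to keep their direction in every library, so leaving a library out could not reverse them. The count of 0 was thus partly fixed in advance and does not measure how stable the ratios are. Of all 1496 values, 56 moved by more than the SD over libraries. The count of 8 higher genes was 16 at the 20 CPM minimum and 10 to 14 with a library left out (13 without P4, 14 without P21). Both settings ask less of a gene than the main rule, so it was fixed in advance that all 8 were kept there. 5 of the 8 were kept with each other subtype weighted alike (without Pax7, Zfhx4 and 2700069I18Rik), and 6 with thinned nuclei and with each nucleus weighted alike (without Pax7 and Zfhx4). The count of 46 lower genes was 80 at 20 CPM and 52 to 57 with a library left out, where 44 to 46 of the 46 were kept. Thinned nuclei called 40 lower genes and kept 33 of the 46, the largest loss of any setting. With 20 CPM added 41 were called, all of them among the 46.

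The 90th percentile of the stage change became 0.94, 0.59, 0.90 and 1.60 for E19 to P4, P4 to P8, P8 to P21 and E19 to P21 with 20 CPM added, and 1.43, 1.03, 1.22 and 1.99 with genes at 20 CPM or more. Median-of-ratios scaling gave 0.72 for P4 to P8 and 1.79 for E19 to P21. Nuclei with a Gad1 or Gad2 UMI and no Slc17a6 UMI gave 1.13 for E19 to P4 and 1.89 for E19 to P21. Without the deepest nucleus of each library, an alternative added after seeing the data, it was 0.71 for P4 to P8 and 1.80 for E19 to P21, and thinned nuclei gave 1.5 for E19 to P21 over 137 genes. The likeness to IN1 was 0.864 and to IN2 0.827, below IN7 at 0.841, at the 200 CPM minimum, and 0.839, 0.828 and 0.835 for IN1, IN2 and IN5 at equal UMI totals, added likewise. Unthinned, 75%, 64.3%, 72.5% and 87.5% of nuclei had a Pax7 UMI. Without the top nucleus per gene, 2 of 37 stage changes moved by more than 0.5, Fbxl7 to -5.10 and Col19a1 to 3.61. Depth limits most the E19 values, and with 24 to 40 nuclei per stage a few nuclei can set a level. No paired analysis was possible because the stages have 1 library each and share no replicates. Ratios of IN11 to the other subtypes were taken within each library.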
